A study of Zea mays with 144 samples.

Results

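The maize genes vdac2 and pdh2 were followed through anther development on spotted cDNA arrays. Array features were taken by gene symbol or synonym. The gene listed as vdac2 (LOC541796) had 1 feature, 4564. The gene listed as pdh2 and PDHE1-B (LOC541705) had 2 features, 3379 and 1509. These 3 features are all the members among 12160 features on the array. Another gene listed with the synonym pdh2 (LOC541700, also pgd2) had 0 features, as did vdac1a and vdac1b. Both genes were chosen from their measured stage profiles, so their stage values are given as a description with no test. As far as is recorded, that choice rested on stage results. Floret differences were tested, although earlier results of these data were known.

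All RNA came from anthers of the inbred line Ky21 with no treatment named in the labels. Anthers of the upper and the lower floret of tassel spikelets were staged by light microscopy as meiocyte (M), dyad/tetrad mixed (D/T), tetrad (T), early microspore (EM), mid-microspore (MM) or mid/late microspore mixed (M/LM). Each of the 12 combinations of 6 stages and 2 florets had 2 pools, and a pool joined RNA of 1 to 4 plants (8 to 20 anthers from each tassel) that was amplified before labelling. The 24 pools formed 2 sets of 12, and 48 slides, each scanned at low, medium and high intensity, held 2 pools of 1 set.

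Voltage-dependent anion channels, or porins, form the pores of the mitochondrial outer membrane through which metabolites such as pyruvate, ADP and ATP pass. The pyruvate dehydrogenase complex turns pyruvate into acetyl-CoA, which enters the citric acid cycle in mitochondria. Its first enzyme, E1, has alpha and beta subunits, and PDHE1-B is a name for the beta subunit. Plants have a mitochondrial and a plastid form of the complex, and the annotation used here gives no compartment for pdh2. In anthers, mitochondria are known to multiply in the tapetum, the inner cell layer that feeds the microspores, and several male sterilities of maize are mitochondrial.

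A pool's value is its log2 ratio to the mean of all 12 pools in the same set. Such values show no absolute level, and levels of different features cannot be set against each other. Directions between stages rest on reading the stage slides as Cy5 over Cy3. The labels do not state this, and the basis is that meiosis genes then fall. Of 4 features of meiocyte markers, 3 fell from M to M/LM in upper florets and 2 in lower florets, against 13.5% of all features falling in each. The largest change among them was that of rad51a, a recombinase, which changed by -2.24 in lower florets with a limma adjusted p of 0.00046. Every direction below is therefore likely and not settled, and the opposite reading exchanges higher and lower. In RNA of whole anthers, fewer cells of a type and less RNA per cell cannot be told apart. A spotted cDNA may also bind RNA of close relatives, which was not tested.

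The porin gene vdac2 was high at the early microspore stage and low at the 5 other stages, in both florets and both sets. In upper florets the EM pools stood at 2.60 and 2.26, and in lower florets at 2.92 and 2.62. The 20 other pools lay between -1.41 and 0.37, so no EM pool overlapped with any pool of another stage. Over all features, 2.57% had all 4 EM pools above the 20 others. The EM mean exceeded the mean of the 5 other stages by 2.80 in upper florets, a 6.98-fold difference, and by 3.44 in lower florets, a 10.9-fold difference. Ranked by this excess, vdac2 was number 21 of 12160 features in upper florets and number 16 in lower florets.

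**Figure D1:**
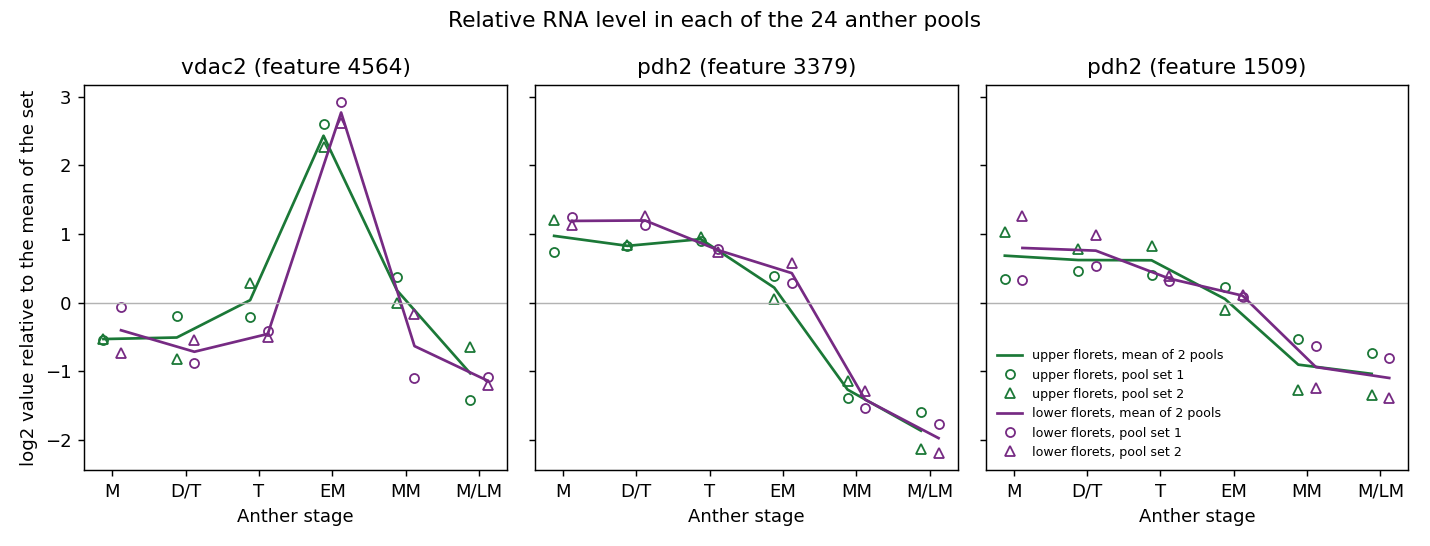
Each panel plots the log2 value of 1 feature, relative to the mean of its set, in the 24 pools against anther stage (circles, set 1; triangles, set 2; lines, means of 2 pools). The vdac2 pools peak at EM between 2.26 and 2.92, whereas pdh2 is above 0.31 in all pools of the first 3 stages and below -0.52 in all pools of the last 2.

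Before the peak, vdac2 was low in all pools. In upper florets they stood at -0.54 and -0.52 at M, -0.19 and -0.82 at D/T, and -0.21 and 0.28 at T. The lower florets had -0.06 and -0.74 at M, -0.88 and -0.55 at D/T, and -0.41 and -0.50 at T. These 12 values overlapped between the 3 stages, which did not differ beyond the spread between pools.

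From T to EM vdac2 differed by 2.40 ± 0.34 (SE of the fit, n = 2 pools per stage) in upper florets, a 5.26-fold higher value at EM. The same step in lower florets was 3.23 ± 0.34, or 9.36-fold. Of all features, 4.08% were called at this step in upper florets and 3.85% in lower florets, at a Benjamini-Hochberg adjusted p under 0.05.

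From EM to MM the value of vdac2 came down again, by -2.25 ± 0.34 in upper florets and by -3.40 ± 0.34 in lower florets, or 4.76-fold and 10.6-fold. Of all features, 5.58% and 7.34% were called there. The MM pools stood at 0.37 and -0.01 in upper florets and at -1.10 and -0.17 in lower florets, which was the widest spread of any stage (SD 0.62 over 4 pools). At M/LM the upper floret pools stood at -1.41 and -0.65 and the lower floret pools at -1.08 and -1.20. The stages in falling order were EM, T, MM, M, D/T and M/LM, and each neighbour in that order overlapped with the next, apart from EM with T. Between the first and the last stage vdac2 differed by -0.50 ± 0.34 in upper and -0.74 ± 0.34 in lower florets. Both values are smaller than either step at EM. With 1 pool left out the upper floret value ran from -0.91 to -0.0060 (without upper M/LM replicates 2 and 1) and the lower floret value from -1.13 to -0.29 (without lower M replicates 2 and 1).

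The size of the vdac2 peak depended on the scan. On the 8 stage slides that held an EM pool, the log2 ratio was smaller in the high scan than in the low scan on 8 of 8. Sizes on these slides ranged from 2.25 to 4.81 in low scans and from 0.72 to 2.82 in high scans, with medians of 3.21 and 2.36. On the slide of lower floret set 1 with EM and MM, the ratio of MM to EM was -4.81 in the low, -4.25 in the medium and -2.48 in the high scan. The matching upper floret slide gave -2.74, -2.49 and -0.72. All 24 scans of these 8 slides had the same direction.

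**Figure D2:**
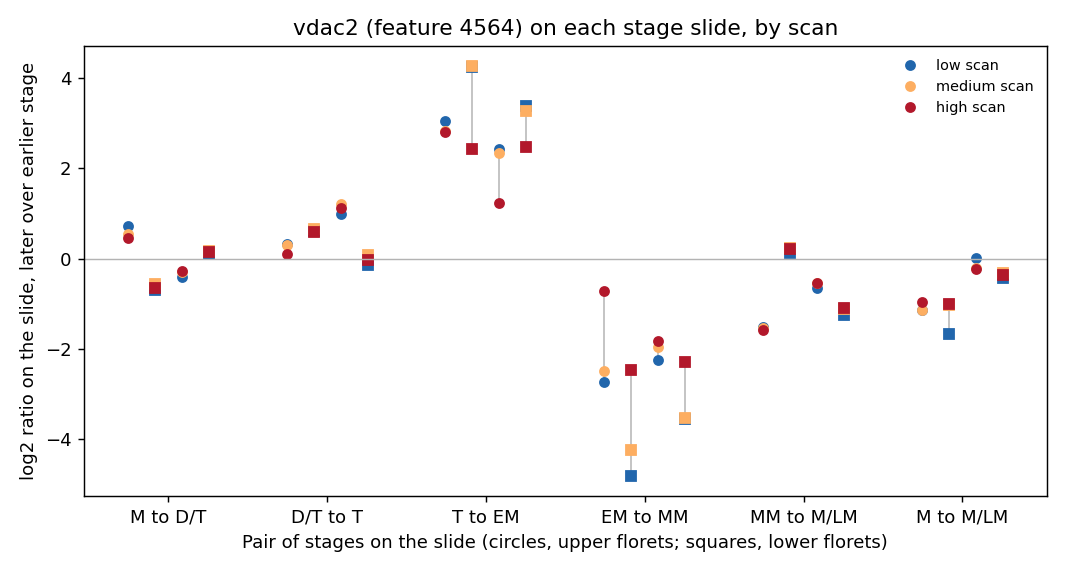
The log2 ratio of vdac2, later over earlier stage, is plotted for each of the 24 stage slides, with its low, medium and high scans joined by a line (circles, upper florets; squares, lower florets). Ratios of T to EM lie above 0 and ratios of EM to MM below 0 in every scan, and the high scan lies nearest to 0 on all 8 of these slides.

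On the 16 stage slides with no EM pool, the high scan was smaller on 11, with medians of 0.63 in low and 0.50 in high scans. The values above average the scans of a slide. Fitted from low scans alone, the T to EM step of lower florets was 3.74, and from high scans alone 2.37. The corresponding EM to MM values in upper florets were -2.71 and -1.52. Whether vdac2 or pdh2 held the most frequent value of a scan was checked only in scans where many features shared that value. Neither gene held it in the scans checked. A median of 1203.5 features shared it in low, 217.5 in medium and 34.5 in high scans, so most high scans were not checked. The signals behind the ratios were not analysed here.

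The E1 subunit gene pdh2 was high at the first 3 stages, lower at EM and lowest in the last 2 stages, in both florets and on both of its features. With feature 3379 the upper floret pools stood at 0.73 and 1.21 at M, 0.82 and 0.83 at D/T, and 0.90 and 0.95 at T. The lower floret pools stood at 1.24 and 1.14 at M, 1.14 and 1.26 at D/T, and 0.78 and 0.74 at T. Over both florets these 12 pools overlapped between stages, and they lay between 0.73 and 1.26. Within lower florets both T pools lay below the M and D/T pools.

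At EM feature 3379 had 0.39 and 0.05 in upper and 0.28 and 0.57 in lower florets, below every pool of the earlier stages. At MM it had -1.40 and -1.14 in upper and -1.54 and -1.29 in lower florets. At M/LM the upper pools stood at -1.60 and -2.14 and the lower pools at -1.76 and -2.19. The lowest MM pool, at -1.54, and the highest M/LM pool, at -1.60, lay close together.

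From M to M/LM feature 3379 differed by -2.84 ± 0.22 (SE, n = 2 pools per stage) in upper florets, or 7.15-fold. The difference in lower florets was -3.17 ± 0.22, or 8.97-fold. At an adjusted p under 0.05, 26.7% of all features were called in this comparison in upper florets and 27.8% in lower florets. The 4 slides that held M and M/LM together gave -2.03 and -3.29 in upper and -3.41 and -3.37 in lower florets, averaged over scans.

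Feature 1509 of pdh2 had the same order of stages with smaller differences. Its upper floret pools stood at 0.34 and 1.03 at M, 0.46 and 0.78 at D/T, 0.41 and 0.82 at T, 0.22 and -0.11 at EM, -0.53 and -1.28 at MM, and -0.73 and -1.35 at M/LM. Its lower floret pools stood at 0.34 and 1.26 at M, 0.53 and 0.98 at D/T, 0.31 and 0.39 at T, 0.09 and 0.12 at EM, -0.63 and -1.25 at MM, and -0.81 and -1.39 at M/LM. Here the pools of MM and M/LM overlapped, while EM overlapped neither with the first 3 stages nor with the last 2. Among all features, 0.493% had the first 3 stages above EM and EM above the last 2 stages with no overlap, and 6.28% had the first 3 stages above the last 2.

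The change of feature 1509 from M to M/LM was -1.72 ± 0.37 in upper florets, or 3.30-fold, and -1.89 ± 0.37 in lower florets, or 3.72-fold. With 1 pool left out it ran from -2.15 to -1.41 (without upper M replicates 1 and 2) and from -2.37 to -1.35 (without lower M replicates 1 and 2). The size of the changes differed between the sets. On the upper floret slides with M and D/T the dyes were also exchanged between sets, so set and dye direction cannot be told apart there. Over its 12 pools, feature 1509 spanned 1.34 in set 1 and 2.65 in set 2. For feature 3379 the spans were 3.01 and 3.44, and for vdac2 4.33 and 3.82. Pool values of the 2 pdh2 features had r = 0.94 over the 24 pools, 0.99 within set 1 and 0.97 within set 2. Those pools share slides and the centring of scans, and both features stand for 1 gene, so this is a description.

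**Figure D3:**
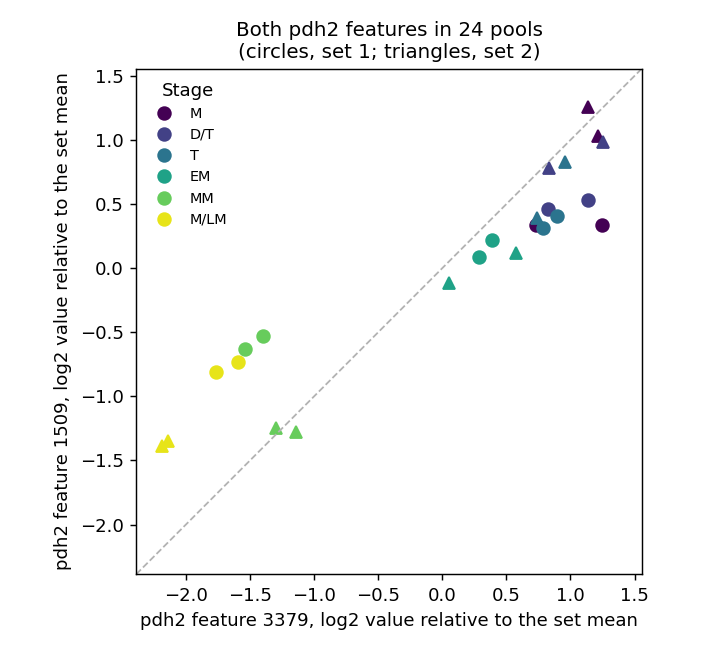
Each point is 1 of 24 pools, with the log2 value of pdh2 feature 3379 on the x axis and of feature 1509 on the y axis, coloured by stage (circles, set 1; triangles, set 2; dashed, equal values). Pools of MM and M/LM lie at the lower left on both features, and set 1 spans 1.34 on the y axis against 2.65 in set 2.

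The pdh2 decline was spread unevenly over the steps. From EM to MM feature 3379 differed by -1.49 ± 0.22 in upper and -1.84 ± 0.22 in lower florets, which was 52.4% and 58.3% of its change from M to M/LM. For feature 1509 the step was -0.96 ± 0.37 and -1.04 ± 0.37, or 55.6% and 54.9%. With 1 pool left out the upper floret value of feature 1509 ranged from -1.38 (without upper MM replicate 1) to -0.50 (without upper MM replicate 2). The step before it, from T to EM, was -0.71 and -0.33 on feature 3379 and -0.56 and -0.25 on feature 1509, in upper and lower florets. In lower florets the D/T to T step was no smaller, at -0.43 ± 0.22 on feature 3379 and -0.41 ± 0.37 on feature 1509. The upper floret values of that step were 0.10 and -0.0037. The sum of the 2 steps from M to T was between 1.67% and 23.5% of the change over both features and florets.

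Thus vdac2 and pdh2 both came down from EM to MM, while from T to EM vdac2 went up and pdh2 did not. Over the 24 pools vdac2 had r = 0.22 with feature 3379 of pdh2 and 0.10 with feature 1509. Between the sets, the 12 combinations of stage and floret had r = 0.93 for vdac2, 0.97 for feature 3379 and 0.96 for feature 1509, in the same pools from which the genes were chosen.

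No floret difference of a member passed the test. The upper and lower pool of 1 stage and set shared slides, and the fit has no term for that pairing. Averaged over stages, upper florets exceeded lower florets by 0.19 ± 0.14 for vdac2 (SE, 95% interval -0.11 to 0.49, limma adjusted p 0.34). Upper florets had the higher vdac2 value in 7 of 12 pairs of pools. For pdh2 the difference was -0.06 ± 0.09 on feature 3379 (interval -0.26 to 0.13, limma adjusted p 0.64) and 0.01 ± 0.15 on feature 1509 (interval -0.32 to 0.34, limma adjusted p 0.97). Upper florets were higher in 8 and 7 of 12 pairs. Of all features, 26.7% were called in this comparison. The intervals allow a vdac2 value up to 1.41-fold higher in upper florets.

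At single stages, the largest floret difference of a member was that of vdac2 at MM. There upper florets exceeded lower florets by 0.81 ± 0.34 (interval 0.07 to 1.55), with a limma adjusted p of 0.37. The difference was 1.47 in set 1 and 0.16 in set 2. At EM the vdac2 difference was -0.34 ± 0.34, with -0.32 in set 1 and -0.36 in set 2. On the 4 slides that held both florets at EM, the log2 ratio lay between -0.53 and -0.19 in low scans and between -0.00055 and 0.027 in high scans. Fitted from single scans, this difference was -0.48 with low, -0.49 with medium and -0.05 with high scans, and it passed the test with none. For pdh2 the differences at the 6 stages lay between -0.37 and 0.16 on feature 3379 and between -0.14 and 0.27 on feature 1509. At MM 0.0493% of all features were called, and at EM 0.0411%.

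**Figure D4:**
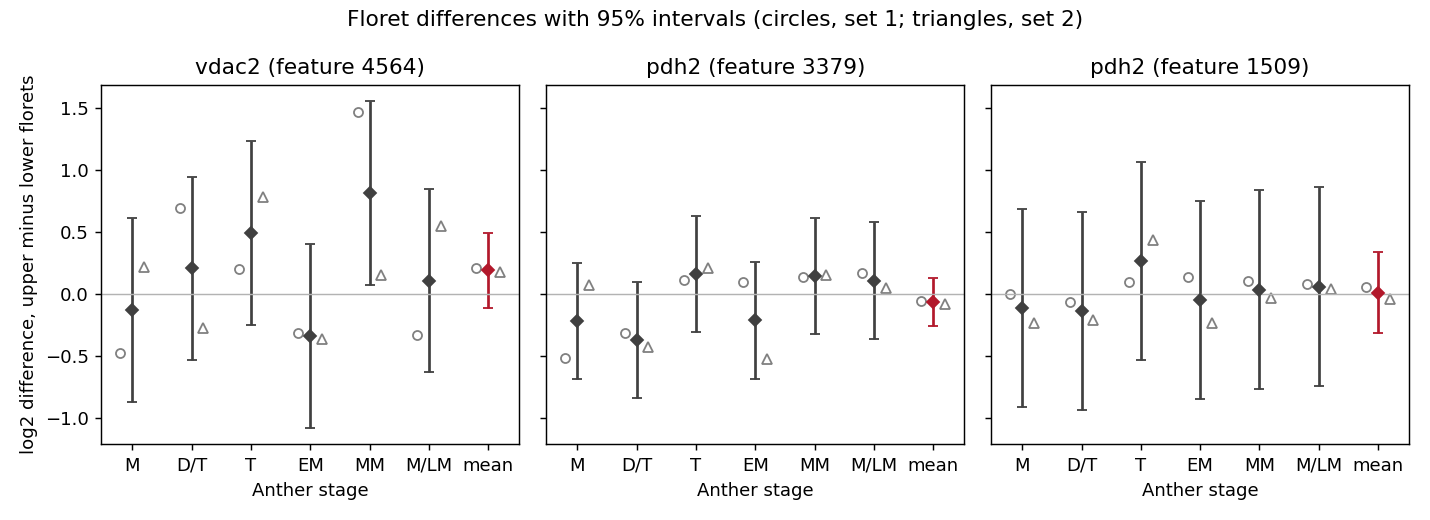
Diamonds show the fitted log2 difference of upper minus lower florets at each stage and, in red, averaged over stages, with 95% intervals, for each feature (circles, set 1; triangles, set 2). Of the 21 intervals shown only that of vdac2 at MM, from 0.07 to 1.55, leaves out 0, and its 2 sets stand at 1.47 and 0.16.

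The stage profile of the members was not shown to differ between florets. The limma F test of the floret by stage interaction had adjusted p-values of 1.00 for all 3 features, and unadjusted p-values of 0.26 for vdac2, 0.40 for feature 3379 and 0.97 for feature 1509. The test called 0 of 12160 features at an adjusted p under 0.05, and 270 had an unadjusted p under 0.05. The 270 are a smaller share than that threshold gives with no interaction at all, so the test may miss differences. It also leaves out that upper and lower pools of 1 stage and set shared slides. The lower and upper peaks of vdac2, 3.44 and 2.80, are therefore not shown to differ in height, and both average scans that differ as given above.

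Among 1145 features of other genes with a gene name, those most like each member were found by Pearson's r over the 24 pools, as a description. For vdac2 they were GNAT42 (r = 0.93), ss2 (0.93), GRF14 (0.93), pcna2 (0.88) and VAP27-2 (0.88). The gene ss2, also sus1, encodes a sucrose synthase, which splits sucrose, and pcna2 encodes the sliding clamp of DNA replication. From T to EM ss2 differed by 1.93 in upper and 2.50 in lower florets, and from EM to MM it changed by -1.38 and -2.01. The most opposite profiles were those of chiA, a chitinase (-0.84), H+-PPase, a proton pump driven by pyrophosphate (-0.84), and CesA-2, a cellulose synthase subunit (-0.84). By ranks of the pools, the likeness of ss2 to vdac2 was lower (Spearman rho 0.61), and 0 of the 5 genes were among the 5 highest by rho.

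For feature 3379 of pdh2 the most alike were cyclin4, a cyclin (0.98), MNB1B, a DNA-binding protein of the HMG type (0.94), bf1 (0.93), TRAF41 (0.93) and HSP18, a small heat shock protein (0.93). Its most opposite were aldh5, an aldehyde dehydrogenase (-0.96), SnRK2.6, a protein kinase (-0.96), and ZmCASP1 (-0.94). For feature 1509 the most alike were MNB1B (0.93), cyclin4 (0.92), CRH, a calreticulin (0.92), HSP18 (0.90) and bf1 (0.90), and the most opposite abcf1 (-0.91), ZmCASP1 (-0.91) and prp2 (-0.91). Thus 4 of 5 gene names were shared by both pdh2 features. When likeness was ranked by rho, 1 of the 5 genes stayed among the highest 5 for feature 3379 and 2 for feature 1509.

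Other genes of the same pathways were represented by 21 features of 14 genes, from a list chosen with earlier results of these data known. From M to M/LM, 3 of the 21 rose and 3 fell in upper florets, against 13.2% and 13.5% of all features. In lower florets 2 rose and 2 fell, against 14.3% and 13.5%. The median of the 21 was -0.17 in upper and -0.04 in lower florets, and that of all features -0.01 and 0.01.

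The only other porin on the list was por1, 1 feature. Its 4 EM pools stood at 0.44 and 0.53 in upper and 0.65 and 0.48 in lower florets. All lay above its other pools, the highest of which was 0.33 at T. The EM pools lay above all others in 2.57% of all features. The T to EM step of por1 was 0.25 ± 0.16 in upper and 0.40 ± 0.16 in lower florets, with limma adjusted p-values of 0.57 and 0.27. From EM to MM por1 fell by 0.79 in lower florets (limma adjusted p 0.019) and changed by -0.60 in upper florets (limma adjusted p 0.072). Both porin features therefore stood highest at EM, with vdac2 spanning the wider range. The difference between them was not tested.

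Pyruvate dehydrogenase kinases, which phosphorylate and inactivate the E1 enzyme, were represented by pdlk1 and pdlk2. The value of pdlk2 rose from M to M/LM by 1.48 in upper and 1.64 in lower florets, 2.79-fold and 3.12-fold (limma adjusted p 1.8e-05 and 8.9e-06). Its M pools stood at -0.40 and -0.41 in upper and -0.62 and -0.51 in lower florets. Its M/LM pools stood at 0.98 and 1.17 in upper and 1.10 and 1.05 in lower florets. Thus pdlk2 was highest at the stage at which pdh2 was lowest. The annotation gives no compartment for pdh2, and a link between these genes was not tested. The change of pdlk1 was 0.68 in upper and 0.58 in lower florets, and neither passed the test (limma adjusted p 0.070 and 0.12).

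**Figure D5:**
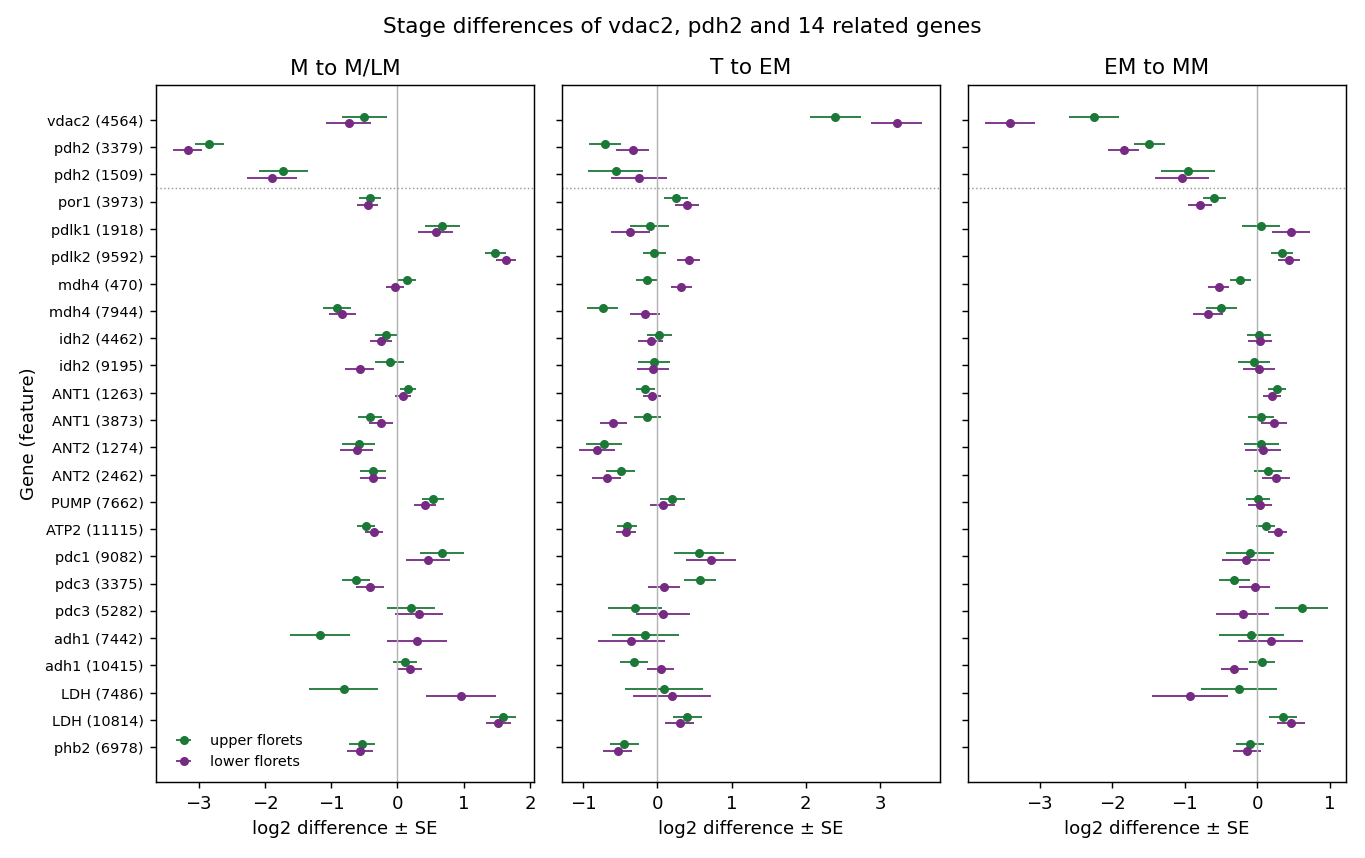
Points show the fitted log2 difference with its SE (n = 2 pools per stage and floret) from M to M/LM, T to EM and EM to MM for the 3 member features, above the dotted line, and 21 features of 14 related genes. At T to EM vdac2 stands at 2.40 and 3.23, while all other features shown lie between -0.81 and 0.72.

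The list for the citric acid cycle had 4 features, of mdh4 and idh2. The gene mdh4 is a malate dehydrogenase also listed as CYTMDH, a name for the cytosolic enzyme, which is not part of the mitochondrial cycle. Its feature 7944 fell by 0.91 in upper and 0.83 in lower florets (limma adjusted p 0.0054 and 0.0090). Its other feature, 470, stood at 0.15 and -0.04, so the 2 features of mdh4 disagree. The isocitrate dehydrogenase gene idh2 had values between -0.57 and -0.12 on its 2 features, and none passed, so the list's only call was mdh4. Of 6 features of carriers and ATP synthase, 1 rose and 1 fell in upper florets and 0 passed in lower florets. PUMP, an uncoupling protein, rose by 0.54, and ATP2, the beta subunit of ATP synthase, fell by 0.47. The adenine nucleotide carriers ANT1 and ANT2 lay between -0.62 and 0.16 on 4 features.

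Of 7 features of pyruvate decarboxylases and fermentation enzymes, 1 rose in each floret and 1 fell in upper florets. Feature 10814 of LDH, a lactate dehydrogenase, rose by 1.60 and 1.52, whereas its other feature, 7486, stood at -0.81 and 0.96 and passed in neither. Feature 3375 of pdc3, a pyruvate decarboxylase, fell by 0.63 in upper florets. The alcohol dehydrogenase gene adh1 passed in neither floret on 2 features. The prohibitin gene phb2, whose protein sits in the inner mitochondrial membrane, fell by 0.57 in lower florets (limma adjusted p 0.044) and stood at -0.53 in upper florets (limma adjusted p 0.058).

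At the T to EM step, where vdac2 went up, limma called 0 of the 21 related features in either floret, against 4.08% and 3.85% of all features. An unadjusted limma p under 0.05 was found for 6 in upper and 9 in lower florets, against 20.4% and 21.6% of all features. At the EM to MM step, where both vdac2 and pdh2 came down, limma called 0 in upper florets and 1, por1, in lower florets. Of all features, 5.58% and 7.34% were called at that step. There 3 and 5 had an unadjusted p under 0.05, against 22.6% and 28.1% of all features. Between florets, averaged over stages, 4 of the 21 were higher in upper florets, against 13.8% of all features, and 1 was lower, against 12.9%. These were ATP2 (0.25), pdc3 feature 3375 (0.27), adh1 on both features (1.22 and 0.28) and LDH feature 7486 (-0.76).

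Markers of other cells were few on the array. Of 8 tapetum marker names only ms23 had a feature, at 0.60 and 0.74 from M to M/LM in upper and lower florets, and passed in lower florets. Its T to EM steps were -0.07 and 0.71 and its EM to MM steps 0.50 and -0.14. Of 7 pollen marker names only PRO1 had one, at -0.66 and -1.03 from M to M/LM, with T to EM steps of -0.89 and -0.49 and EM to MM steps of -0.54 and 0.39. PRO1 passed in none of these.

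Leaf markers had 9 features of 4 of 6 names, with more than 1 feature for each of these names. From M to M/LM, 4 rose and 3 fell in upper florets, against 13.2% and 13.5% of all features. In lower florets 4 rose and 1 fell, against 14.3% and 13.5%. The T to EM steps of the leaf markers lay between -1.11 and 0.95 and their EM to MM steps between -0.99 and 1.30. The gene me3, named for a malic enzyme, had 2 features. From T to EM they stood at 0.51 and 0.20 in upper and 0.58 and 0.58 in lower florets, none of which passed. From EM to MM they fell by 0.91 and 0.71 in upper florets (limma adjusted p 0.039 and 0.028). In lower florets they fell by 0.99 and 0.87 (limma adjusted p 0.026 and 0.0089). At that step vdac2 also came down, and 5.58% of all features were called in upper and 7.34% in lower florets. Kernel markers had 2 features, of which 1 rose from M to M/LM in lower florets, against 14.3% of all features. The T to EM steps of the kernel markers lay between -0.12 and 0.27 and their EM to MM steps between 0.29 and 0.83.

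The T to EM steps of the 4 meiocyte features lay between -0.59 and 0.38, and their EM to MM steps between -0.76 and 1.31. Of these, afd1, which encodes a cohesin of meiotic chromosomes, rose from EM to MM by 0.95 in upper and 1.31 in lower florets (limma adjusted p 0.019 and 0.0025), although it fell from M to M/LM. The part of these marker changes in the results for vdac2 and pdh2 was not tested.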

How the data were processed

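The deposited values of each scan were taken as natural log ratios of both channels, 1 per feature, centred near 0 by the authors (medians between -0.025 and 0.033). No source used here names the software. The base is unstated too: in 47 low scans, distances between repeated values matched whole-number ratios up to 9 (tolerance 5e-06) 63 times under a natural log, 0 times under log2 and 5 times under log10. Signals behind the ratios were not analysed here, so depth is unknown and the number of pools limits the precision.

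They were converted to log2, the median of every scan was set to 0, and slides were given the mean of their 3 scans. Stage slides were read as Cy5 over Cy3. Floret slides were read as upper over lower as deposited, since closed squares of slides had r between 0.27 and 0.48 so read and between -0.05 and 0.05 if turned by the dyes (10 squares). Least squares gave each set's pool values from its slides (R 4.3.3 with MASS 7.3.60.0.1). limma 3.58.1 was fitted to all 12160 features with 12 groups and a term for the set (11 residual degrees of freedom). It had no term for the pair of florets of 1 stage and set. The set term is in the main fit because slides join only pools of 1 set. P-values were adjusted by Benjamini-Hochberg over all features, and jointly over the 10 steps and over the 6 stages of florets. Whether pools of a group share plants is not stated, so p-values measure the spread between pools. The code was tested on simulated data.

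Of all features, 6412 had 1 gene and 6358 were matched to the RefSeq table, which names genes by symbol and synonym only, so lists fixed by description could be matched only by name. Members, lists and tests were chosen with earlier results of these data known. Named genes are the members, the 5 most and 3 least like each by Pearson's r, the related lists and the markers. All features of the related lists were counted, and genes beyond the 3 largest changes per list were named after their values were seen. Figures used matplotlib in Python. Alternatives covered single scans, their median, scaling to 1 spread, the direction of floret slides, slides of 1 kind, the set term and each pool left out. Low with medium scans, and leaving out the most frequent values, were chosen after seeing the data.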

Additional observations from a re-analysis of the deposited data

How the results depend on the processing

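The vdac2 peak and the pdh2 decline kept their direction under all alternatives run, and their size moved. All of these read the stage slides as Cy5 over Cy3, so they cannot decide whether that reading is right. The T to EM step of vdac2 in lower florets (3.23) was 3.74 with low scans, 3.58 with medium scans, 2.37 with high scans, 3.58 with the median of scans, 3.04 scaled to 1 spread, 3.06 with floret slides turned by the dyes and 3.66 with low and medium scans. The EM to MM step in upper florets (-2.25) was -2.71, -2.52, -1.52, -2.50, -1.98, -2.53 and -2.62 in the same order, and -2.13 with stage slides only. In lower florets it was -2.36 with high scans. From M to M/LM, pdh2 feature 3379 was -2.03 in upper and -2.29 in lower florets scaled to 1 spread, and in lower florets -3.40 with low and -2.92 with high scans. Leaving out each pool in turn gave 2.08 to 2.66 and 2.97 to 3.44 for the T to EM step of vdac2, -2.55 to -2.12 and -3.81 to -2.96 for its EM to MM step, and -3.22 to -2.59 and -3.28 to -2.89 for pdh2 feature 3379 from M to M/LM, in upper and lower florets.

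Floret averages near 0 changed sign: vdac2 became -0.027 and pdh2 feature 3379 became 0.020 with floret slides turned by the dyes. Feature 1509 became -0.011 with low, -0.00073 with medium, -0.0059 with low and medium scans and -0.0059 scaled to 1 spread, and lay between -0.078 and 0.107 with pools left out. None of these passed the test. The vdac2 floret difference at MM lay between 0.31, without lower MM replicate 1, and 1.38, without lower MM replicate 2.

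Counts of called features moved more. Scaled to 1 spread, 1376 features in upper and 1507 in lower florets were called from M to M/LM, against 3246 and 3379. Over all steps 2969 were called, 6454 with floret slides turned by the dyes and 1963 with stage slides only. With those slides turned, the floret average called 1 feature against 3252. For florets at each stage (20), counts were 41 with low scans, 114 with the median of scans, 41 scaled to 1 spread, 0 with floret slides turned, 140 with no replicate block (no term for the set), 0 with low and medium scans and 10 without the most frequent values. The interaction called 1 feature with low scans against 0. Leaving out pools gave 1708 (without upper M replicate 1) to 3161 and 1852 (without lower M/LM replicate 2) to 3427 from M to M/LM, 3495 to 4431 and 3357 to 4630 for the stage effect (upper, lower), 1455 (without upper EM replicate 1) to 3016 over steps, 2479 to 3272 for the floret average, 0 to 45 at each stage and 0 to 8 for the interaction. The cause was not tested. Without the set term the floret averages of the members and the vdac2 differences at MM and EM did not pass either, and estimates were the same. The members' other floret differences at single stages were not examined without that term.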
